A study of Homo sapiens with 9 samples.

Results

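PANC1 cells that received a plasmid for flag-tagged NUSAP1 were set directly against PANC1 cells that received a small interfering RNA (siRNA) against NUSAP1. PANC1 is a human cell line from a pancreatic ductal adenocarcinoma. Each group had 3 RNA sequencing libraries, overexpression 1 to 3 and knockdown 1 to 3, which are 6 of the 9 libraries of the series. No control library enters the values given here. The labels give the genotypes as Nusap1 overexpression and Nusap1 knockdown, and name no transfection reagent, dose or time. Of the 60612 genes in the table, the 12089 with at least 1 FPKM (fragments scaled by transcript length and library size) in at least 3 of the 6 libraries were tested. The groups differ in the kind of nucleic acid delivered, a DNA plasmid against a short double-stranded RNA, as well as in NUSAP1. What belongs to the plasmid, to the siRNA and to NUSAP1 cannot be told apart. The labels also do not say whether the libraries of a group came from separate cultures, so every p-value measures the spread between these libraries only.

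NUSAP1 is a microtubule-binding protein that bundles spindle fibres around chromosomes in mitosis. The study's title joins it in a loop with LDHA, which makes lactate from pyruvate at the end of glycolysis. Foreign nucleic acid in the cytosol can be sensed by RIG-I (DDX58), MDA5 (IFIH1) and cGAS. These sensors act through adaptors such as MAVS to turn on interferon and NF-kappaB genes. Secreted interferon then acts on antiviral genes through factors that include STAT2 and IRF9.

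Total counts were 62442203 to 62799600 in the overexpression libraries and 57518565 to 69764307 in the knockdown libraries. The groups were parted by a first principal component with 66.5% of the variance. The second held 12.3% and ran within them, with overexpression 1 and knockdown 3 on the one side and overexpression 2 and knockdown 2 on the other. Keratin 18 (KRT18) had 106, 95.9 and 130.0 FPKM in the overexpression libraries, against 79.8, 73.1 and 86 FPKM in the knockdown libraries, and vimentin (VIM) had at least 558 FPKM in every library. Other markers listed for the line were lower. KRT8 and SOX9 had mean FPKM of 26.9 and 35.1 in overexpression, against 37.7 and 32.9 in knockdown. KRT19 had a mean of 5.16 against 3.03 FPKM. KRT7 had a mean of 0.736 against 0.388 FPKM and did not reach the filter. CDKN2A, a gene known to be deleted in PANC1, was at or below 0.0231 FPKM in all 6. Transcripts that define hepatocytes (18 genes, among them albumin) summed to 23.3, 1.03 and 27.4 FPKM in overexpression 1, 2 and 3, against 0.54, 0.348 and 0.452 FPKM in knockdown 1, 2 and 3. All 18 had counts in overexpression 1 and 3, while 10 were at 0 in overexpression 2 and 9 to 12 in the knockdown libraries. None of the 18 was tested, because none reached 1 FPKM in 3 libraries. Markers of other cell types (18 genes) summed to 61.6, 39.2 and 44.8 FPKM in overexpression 1, 2 and 3, against 32.8, 36.1 and 34.2 FPKM in knockdown 1, 2 and 3, with 7 to 10 of them at 0 counts in a library and PRSS1, CPA1, CELA3A and INS at 0 in all 6. CD68 alone gave 49.1, 28.8 and 32.5 FPKM of these sums in overexpression, against 17.1, 19.5 and 18.8 FPKM in knockdown libraries, and was called higher. The fibroblast genes COL1A1 and COL3A1 were called lower, by 0.32 and 2.23 on the log2 scale. The call of COL1A1 was lost with a correction for GC content (-0.14, edgeR adjusted p 0.172) and without both libraries numbered 3 (0.0841). COL3A1 passed the filter through knockdown alone, so it had to differ. The part of either list in the results was not tested. Many results are also given without overexpression 1 and 3. In bulk RNA, fewer cells of a kind and less RNA per cell cannot be told apart.

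NUSAP1 itself (ENSG00000137804, chromosome 15, 41320794 to 41381050) had 13325, 13792 and 12909.9 FPKM in overexpression 1, 2 and 3, against 12, 13.8 and 11.6 FPKM in knockdown 1, 2 and 3. The groups were far apart, and the libraries of each differed little. The log2 fold change was 10.15 ± 0.12 (standard error, n = 3 libraries per group), with an edgeR adjusted p of 6.85e-07. NUSAP1 took 5.78%, 6.0% and 5.63% of the reads counted in overexpression 1, 2 and 3, against 0.00515%, 0.00592% and 0.00498% in knockdown 1, 2 and 3. An exact two-sided permutation test of the 6 libraries gave p = 0.1, the smallest that 3 against 3 allows. Its locus overlaps OIP5, a centromere protein gene, which had 12.1, 12.2 and 12.9 FPKM in the overexpression libraries, against 11.1, 10.9 and 11.8 FPKM in the knockdown libraries. The table does not part transcripts of the plasmid from those of the cell's own NUSAP1 gene.

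Of the 12089 genes, 5843 (48.3%) were called at an edgeR adjusted p below 0.05. By direction, 2975 (24.6%) were higher and 2868 (23.7%) lower in overexpression. The large differences lay more on the higher side. At least a 2-fold difference was called for 1815 genes (15.0%), 1142 higher (9.45%) and 673 lower (5.57%). At least 4-fold, 252 were higher and 55 lower, and at least 8-fold, 98 were higher and 6 lower. In FPKM the groups did not overlap for 7344 genes (60.7%), with overexpression above for 3121 (25.8%) and below for 4223 (34.9%). FPKM is a share of a library total, of which NUSAP1 holds more in overexpression, and edgeR's scaling factors allow for that. Of the tested genes, 287 passed the filter of 1 FPKM through the overexpression libraries alone and 336 through the knockdown libraries alone, and such genes had to differ. The median log2 fold change over all tested genes was -0.01. With so many genes called, a list with close to 1 in 4 members called each way does not stand out from this background.

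**Figure D1:**
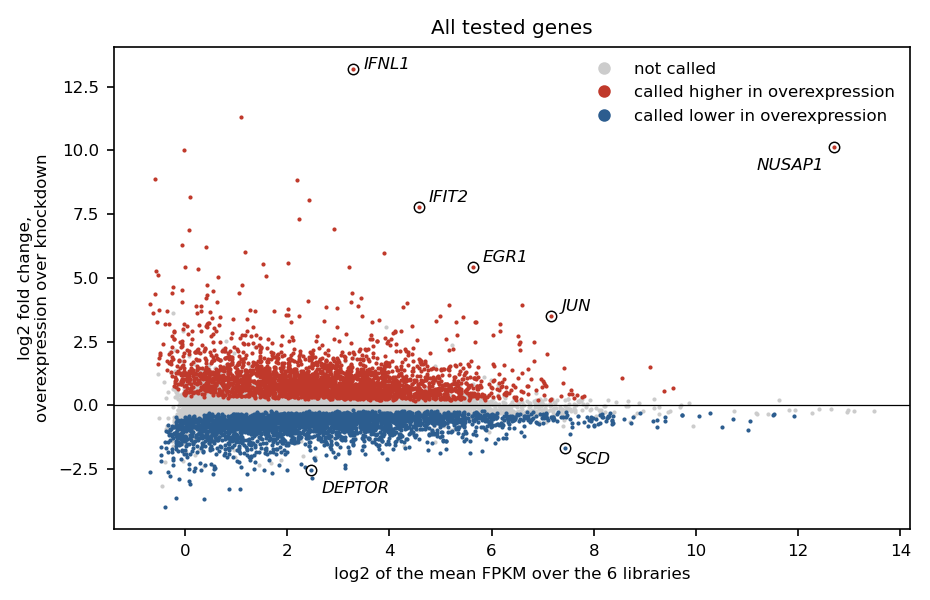
Log2 fold change of overexpression over knockdown (vertical axis) against the log2 of the mean FPKM over the 6 libraries (horizontal axis) for the 12089 genes tested, coloured by edgeR call, with 7 genes ringed and named. The 2975 genes called higher reach far larger fold changes than the 2868 called lower.

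The genes that the series title and its pathway point to differed little beside NUSAP1. LDHA had 77.2, 71.7 and 80.9 FPKM in overexpression 1, 2 and 3, against 59.8, 58.5 and 69.9 FPKM in knockdown 1, 2 and 3. The groups did not overlap, but knockdown 3 was only slightly below overexpression 2. The log2 fold change of 0.37 ± 0.10 passed, with an edgeR adjusted p of 0.0252 and an exact two-sided permutation p of 0.1, the smallest possible. That call did not hold without overexpression 1 (adjusted p 0.068), overexpression 3 (0.0839), knockdown 1 (0.108) or knockdown 2 (0.0652). It was also lost without overexpression 1 and 3 together (0.265), with no filter on low values (0.0521) and with a correction for GC content, under which the log2 fold change was 0.20 (0.206). HIF1A, the oxygen-regulated subunit of HIF-1, had 18.2, 25.2 and 22.3 FPKM in the overexpression libraries, against 14.6, 15.8 and 10.7 FPKM in the knockdown libraries, with no overlap. It rose by a log2 fold change of 0.76 ± 0.17 (edgeR adjusted p 0.0109), a call lost without both libraries numbered 3 (0.058). MYC, a growth-promoting transcription factor, had 36, 30.3 and 4.41 FPKM in overexpression 1, 2 and 3, against 12.5, 10.4 and 1.06 FPKM in knockdown 1, 2 and 3. In each group the library numbered 3 was several-fold below the others, and the groups overlap. The log2 fold change of 1.66 ± 1.03 did not pass (edgeR adjusted p 0.227), and without both libraries numbered 3 it was 1.64 and passed (0.00699).

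**Figure D2:**
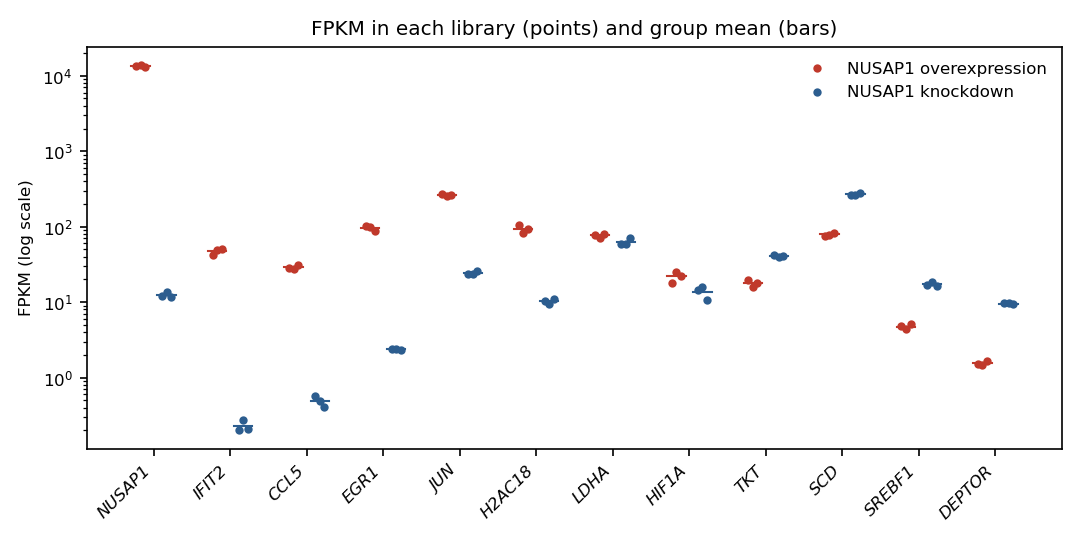
FPKM on a log axis for 12 genes, with overexpression libraries in red at the left and knockdown libraries in blue at the right of each gene, a point per library and a bar at the group mean. The groups do not overlap for any of the 12, as for 60.7% of all genes tested, and some were chosen by a rule that requires it. The gap ranges from a small one for LDHA to more than 10 on the log2 scale for NUSAP1.

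Transcripts of interferon genes were present in the overexpression libraries and almost absent from the knockdown libraries. IFNL1, a type III interferon, had 1291, 1013 and 1134 counts in overexpression 1, 2 and 3, against 0 in every knockdown library. With a floor of 3 counts over the knockdown group that is at least 1197-fold higher, a bound that covers counting error only. IFNB1, the type I interferon beta, had 142, 135 and 97 counts in overexpression 1, 2 and 3, against 0 in each knockdown library, or at least 130-fold higher. The near-identical IFNL2 and IFNL3 had 1954 and 1871 counts over the overexpression group, against 4 and 7 over the knockdown group, and may share reads. All 4 ligands passed the filter through the overexpression libraries alone, so they had to differ.

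Of the sensors and adaptors, 5 of 8 were tested and 4 were higher, against 24.6% of all tested genes. DDX58 (RIG-I), a sensor of short double-stranded RNA ends, had 33.3, 44.4 and 41.5 FPKM in the overexpression libraries, against 7.85, 8.1 and 5.29 FPKM in the knockdown libraries. The groups were well apart, with a log2 fold change of 2.58 ± 0.19 (edgeR adjusted p 0.000196). IFIH1 (MDA5), a sensor of long double-stranded RNA, had 7.01, 7.54 and 7.83 FPKM in overexpression and 0.563, 0.533 and 0.603 FPKM in knockdown libraries, and rose by 3.79 ± 0.11 on the log2 scale. The DNA sensor CGAS rose by 0.72 and the RIG-I regulator DHX58 by 1.3. MAVS, the adaptor of both RNA sensors, went the other way, with 5.09, 4.99 and 5.38 FPKM in the overexpression libraries, against 7.87, 7.73 and 7.2 FPKM in the knockdown libraries, and fell by 0.47 on the log2 scale (edgeR adjusted p 0.00191). IFIH1 and DHX58 had passed the filter through overexpression alone, and TLR3, STING1 and ZBP1 did not reach it.

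Of 32 interferon-response genes, 23 were tested, 22 were higher and none was lower, against 24.6% higher among all genes tested. The median log2 fold change of the 23 was 2.10, beside -0.01 over all genes, and 9 of them had passed the filter through overexpression alone. IFIT2, which binds viral RNA and restrains its translation, had 42, 49.2 and 51.1 FPKM in the overexpression libraries, against 0.20, 0.277 and 0.208 FPKM in the knockdown libraries. It rose by 7.76 ± 0.17 on the log2 scale (edgeR adjusted p 6.35e-06), but passed the filter through overexpression alone and so had to differ. Its relatives IFIT3 and IFIT1 rose by 5.44 and 3.90, and all 3 loci overlap that of LIPA on chromosome 10. ISG15, a ubiquitin-like protein joined to other proteins, had 203, 167 and 203 FPKM in the overexpression libraries, against 39.5, 31.5 and 37.3 FPKM in the knockdown libraries, a log2 fold change of 2.48 ± 0.13. Other effectors with large differences were OASL (7.33), the GTPase MX1 (4.05), the ubiquitin ligase HERC5 (3.52) and IFI6 (3.13). IFIT3 and OASL also passed the filter through overexpression alone, so they had to differ. RSAD2, the antiviral protein viperin, had 649, 720 and 920 counts in overexpression 1, 2 and 3, against 0, 0 and 8 in knockdown 1, 2 and 3.

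The 18 effectors of the response that were tested had a median log2 fold change of 2.81. Among its transcription factors, IRF1 had 5.03, 5.23 and 5.42 FPKM in the overexpression libraries, against 0.773, 1.03 and 0.905 FPKM in the knockdown libraries, and rose by 2.61 on the log2 scale. IRF7 and IRF9 rose by 2.07 and 1.42. STAT2 was the only tested member that did not pass, with overlapping groups, 3.2, 3.6 and 3.44 FPKM in overexpression and 2.67, 3.66 and 3.31 FPKM in knockdown libraries.

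Promoter windows are printed for 6 of these genes to show where the core of the interferon-stimulated response element lies. The letters searched were GAAA, any 2 bases and GAAA on either strand, which read TTTC, any 2 bases and TTTC on the other, within 250 bases before and 50 after the RefSeq start (GRCh38.p14). Matches are in capitals and may overlap each other. Each line holds 80 bases that lie before the start, 5′ to 3′ on the gene's own strand, at chr10:89392485-89392564 and chr10:89327840-89327919 (both +), chr1:1013355-1013434 (+), chr1:78649709-78649788 (+), chr2:162318685-162318764 (-) and chr19:39296164-39296243 (+).
IFIT1: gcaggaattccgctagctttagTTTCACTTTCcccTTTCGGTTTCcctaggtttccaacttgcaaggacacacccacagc
IFIT3: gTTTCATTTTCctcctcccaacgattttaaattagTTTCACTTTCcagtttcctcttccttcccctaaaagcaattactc
ISG15: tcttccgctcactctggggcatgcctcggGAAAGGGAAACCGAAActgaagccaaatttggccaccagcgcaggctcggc
IFI44: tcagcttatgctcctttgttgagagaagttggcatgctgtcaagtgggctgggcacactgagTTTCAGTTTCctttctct
IFIH1: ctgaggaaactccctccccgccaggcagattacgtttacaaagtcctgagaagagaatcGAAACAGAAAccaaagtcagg
IFNL1: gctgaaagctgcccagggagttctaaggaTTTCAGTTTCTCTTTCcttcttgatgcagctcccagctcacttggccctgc

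IFIT1, IFIT3, ISG15 and IFNL1 each show 2 matches in these windows, and IFI44 and IFIH1 show 1. The element was found in 12 of the 18 interferon-response promoters that matched a RefSeq entry and in 4 of 6 for the interferon genes and sensors. Of all 8548 promoters of tested protein-coding genes with an entry (81.2% of those genes), 2.62% held it. Antigen presentation genes held it in 6 of 10. A match is a description of the letters and says nothing of binding.

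Antigen presentation genes moved less and not all the same way. Of 12 tested, 7 were higher and 2 lower, against 24.6% and 23.7% among all tested genes, with a median log2 fold change of 0.63. The lower count was 1 without overexpression 2, overexpression 3, any 1 of the knockdown libraries or both libraries numbered 3. It was also 1 with no filter, limma on TPM or a GC correction. HLA-B, a heavy chain of class I molecules, had 32.7, 31.8 and 43.9 FPKM in the overexpression libraries, against 7.65, 8.0 and 8.44 FPKM in the knockdown libraries, and rose by 2.25 ± 0.14 on the log2 scale (edgeR adjusted p 0.00012). HLA-E rose by 1.27 and the peptide transporter gene TAP1 by 0.90. TAPBP (tapasin), which loads peptides, fell by 0.74, with 13, 11.9 and 13.2 FPKM in the overexpression libraries, against 23.1, 22.2 and 22.3 FPKM in the knockdown libraries. B2M, the shared light chain, had 60.7, 5.66 and 5.83 FPKM in overexpression 1, 2 and 3, against 47.3, 30.1 and 47.1 FPKM in knockdown 1, 2 and 3. Overexpression 1 lay above the knockdown libraries and overexpression 2 and 3 far below them, and the difference did not pass (edgeR adjusted p 0.581). Without overexpression 1 the log2 fold change of B2M was -2.78 and passed (0.00158), as it did without overexpression 1 and 3 together (-2.80, 0.0175). HLA genes are highly polymorphic and alike, so reads may be shared between them.

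NF-kappaB genes and cytokines formed the next group. Of 25 members 17 were tested, 16 were higher and none was lower, against 24.6% higher and 23.7% lower among all tested genes. The median log2 fold change of the 17 was 2.09, and 3 had passed the filter through overexpression alone. Only TNIP1, an inhibitor, did not pass, with 16.2, 13.4 and 16.1 FPKM in overexpression and 16.5, 15.9 and 14.2 FPKM in knockdown libraries. The subunit NFKB2 had 33.6, 32.1 and 33.6 FPKM in the overexpression libraries, against 8.22, 8.39 and 8.2 FPKM in the knockdown libraries, and rose by 2.09 ± 0.07 on the log2 scale (edgeR adjusted p 1.33e-05). RELB rose by 3.52, NFKB1 by 1.11 and RELA by 1.14, and the call of RELA was lost without overexpression 1 and 3 (adjusted p 0.0887). The feedback inhibitor TNFAIP3 (A20) rose by 3.81 and NFKBIA by 2.13. Among chemokines, CCL5, which attracts T cells, had 28.7, 27.6 and 31.5 FPKM in the overexpression libraries, against 0.567, 0.485 and 0.412 FPKM in the knockdown libraries, a log2 fold change of 5.97 ± 0.15. The neutrophil chemokines CXCL8 and CXCL1 rose by 4.73 and 3.74, and CCL2 by 2.46. CCL5 and CXCL8 passed the filter through overexpression alone, so they had to differ. IL6 had 21, 8 and 38 counts in overexpression 1, 2 and 3, against 0 in each knockdown library, and was too low to be tested. CXCL10, a chemokine induced by interferon, had 19, 4 and 43 counts in overexpression 1, 2 and 3, against 0 in each knockdown library.

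Immediate early genes, which cells switch on soon after a stimulus, were higher for 20 of 24 tested and lower for none. Among all tested genes, 24.6% were higher and 23.7% lower. The median log2 fold change of the 24 was 2.46. The filter had been passed through overexpression alone by 5 of the 24, FOS and FOSB among them. EGR1, a zinc finger transcription factor, had 101, 100.1 and 88.8 FPKM in the overexpression libraries, against 2.42, 2.38 and 2.3 FPKM in the knockdown libraries. It rose by 5.44 ± 0.09 on the log2 scale (edgeR adjusted p 3.02e-06), with the libraries of each group close together. The AP-1 subunit JUN had 267, 256 and 265 FPKM in the overexpression libraries, against 23.7, 23.6 and 25.8 FPKM in the knockdown libraries, and rose by 3.52 ± 0.08. Of the other AP-1 genes, FOS rose by 3.72, FOSB by 4.73, FOSL1 by 2.41 and the stress factor ATF3 by 4.21. The feedback phosphatases of MAP kinases were higher for all 5 tested, from 1.93 for DUSP6 to 3.85 for DUSP8. The 4 genes that did not pass were MYC, JUND, IER2 and KLF6, each with at least 1 overexpression library apart from the others of its group. IER2 passed without overexpression 1 (2.94, adjusted p 0.0265).

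Growth factor genes upstream and feedback genes downstream of the same kinases were higher for 10 of 15 tested and lower for 2. Of all tested genes, 24.6% were higher and 23.7% lower. HBEGF and AREG had passed the filter through overexpression alone and ERBB3 through knockdown alone, so these 3 had to differ. HBEGF, a ligand of the EGF receptor, had 8.01, 7.38 and 7.33 FPKM in the overexpression libraries, against 0.848, 0.872 and 0.741 FPKM in the knockdown libraries, and rose by 3.28 ± 0.12 on the log2 scale (edgeR adjusted p 1.95e-05). AREG and EREG, ligands of the same receptor, rose by 1.89 and 2.37, and EGFR by 1.44. The RAS pathway inhibitors SPRY4 and SPRY2 rose by 1.98 and 1.77. The sister receptors ERBB2 and ERBB3 fell by 0.92 and 1.29.

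YAP and TEAD genes, the Hippo pathway's coactivators, DNA-binding partners and targets, were higher for 15 of 21 tested and lower for 3. The shares among all tested genes were 24.6% higher and 23.7% lower. The higher count was 10 without both libraries numbered 3 and 12 with a GC correction. Of the 21, 2 had passed the filter through overexpression alone. ANKRD1, a target that encodes a nuclear and muscle protein, had 37.5, 38.8 and 38.4 FPKM in the overexpression libraries, against 2.0, 3.03 and 2.48 FPKM in the knockdown libraries, a log2 fold change of 4.02 ± 0.17 (edgeR adjusted p 2.96e-05). CCN2 and CCN1, secreted matrix proteins, rose by 1.37 and 1.42. YAP1 rose by 0.64 and WWTR1 (TAZ) by 0.39, while TEAD2 and TEAD3 fell by 1.23 and 0.68. The call of YAP1 was lost without overexpression 1 (adjusted p 0.0714), overexpression 2 (0.058), both overexpression 1 and 3 (0.149) or both libraries numbered 3 (0.0704), and with a GC correction (0.0988). That of WWTR1 was lost with a GC correction, at a log2 fold change of 0.12 (adjusted p 0.232), and without both libraries numbered 3 (0.0643), as was that of TEAD3 (0.0508). TEAD1 had 2.39, 4.05 and 7.58 FPKM in overexpression 1, 2 and 3 and 5.33, 6.92 and 1.64 FPKM in knockdown 1, 2 and 3. Its groups overlap, its log2 fold change of 0.11 ± 0.59 did not pass, and its sign turned under several alternatives.

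Histone genes of the replication-dependent kind were higher for all 15 tested of 16 in the table, against 24.6% of all tested genes. Their median log2 fold change was 2.27, with a range of 0.75 to 3.90, and 1 had passed the filter through overexpression alone. The linker histone H1-2 had 171, 134 and 171 FPKM in the overexpression libraries, against 26.7, 20.1 and 28.7 FPKM in the knockdown libraries, and rose by 2.74 ± 0.18 on the log2 scale (edgeR adjusted p 0.000155). H2AC18 had 104, 82.4 and 94.2 FPKM in the overexpression libraries, against 10.3, 9.3 and 11.2 FPKM in the knockdown libraries, a log2 fold change of 3.27 ± 0.15. The groups lay several-fold apart for both. H4C8 rose by 3.30 and H2BC21 by 2.27. Most such messages end in a stem loop and carry no poly(A) tail, and the libraries were made from poly(A)-selected RNA, so the values cover the tailed fraction. Histone genes have near-identical copies that may share reads. The letters TATAAA lay in 10 of the 14 histone promoters with a RefSeq entry, against 4.95% of all promoters.

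**Figure D3:**
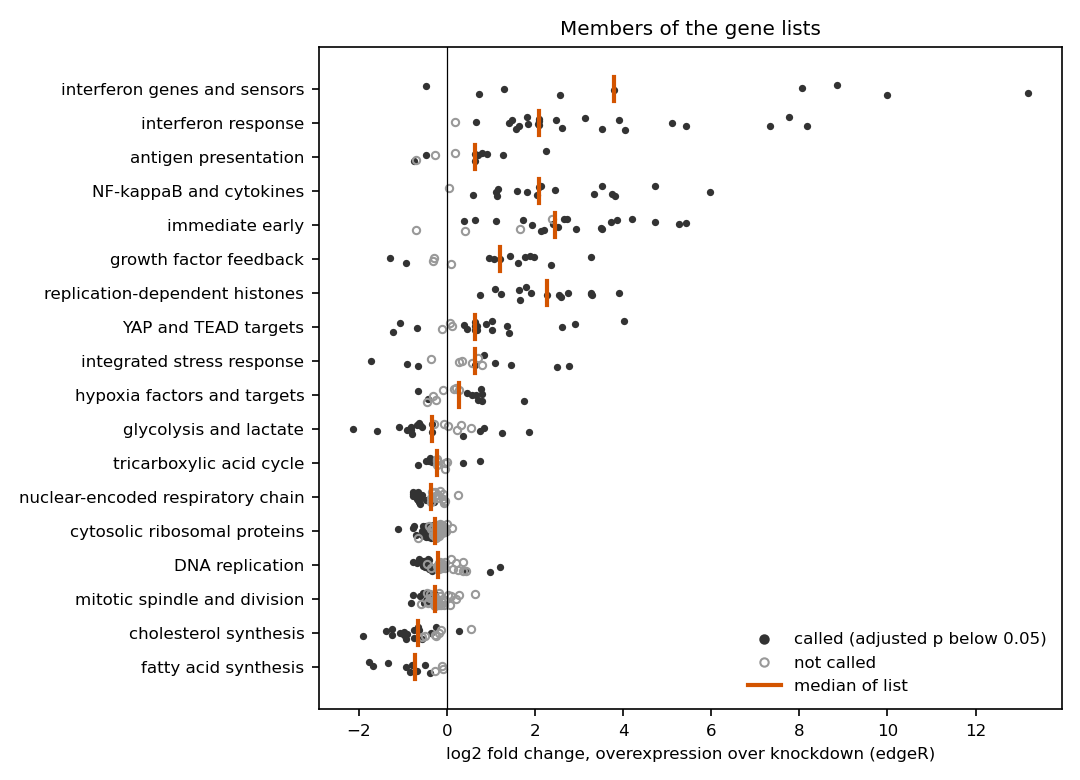
Log2 fold change of overexpression over knockdown for each tested member of 18 gene lists, with filled points for members called by edgeR and open points for those not called, and a bar at the median of each list. Interferon, NF-kappaB, immediate early and histone lists lie to the right with medians of 2.09 to 3.79, and the lipid lists lie to the left with medians of -0.65 and -0.73.

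Stress-response lists were mixed, beside 24.6% higher and 23.7% lower among all tested genes. Of 15 genes of the integrated stress response, which slows translation and turns on ATF4, 6 were higher and 3 lower. PPP1R15A, which ends that response by recruiting a phosphatase to eIF2 alpha, had 115, 109 and 116 FPKM in the overexpression libraries, against 17.7, 17.5 and 17.6 FPKM in the knockdown libraries. It rose by 2.77 ± 0.07 on the log2 scale (edgeR adjusted p 6.76e-06). DDIT3 (CHOP), a transcription factor linked to cell death, rose by 2.50. ATF4 itself did not pass, with 23.9, 19.3 and 44 FPKM in overexpression 1, 2 and 3, against 19.1, 18 and 19.9 FPKM in knockdown 1, 2 and 3, where overexpression 3 stood apart. Without overexpression 2 it passed, at 0.92 (adjusted p 0.0355), and with DESeq2 at 0.69 (0.037). The serine synthesis genes PHGDH and PSAT1 fell by 0.89 and 0.65. DDIT4, an inhibitor of mTOR complex 1, fell by 1.72, with 16.4, 14.7 and 15.1 FPKM in the overexpression libraries, against 51.4, 50.7 and 58.8 FPKM in the knockdown libraries.

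Chaperones of the endoplasmic reticulum were higher for 6 and lower for 4 of 15, against 24.6% and 23.7% among all tested genes. HSPA5 (BiP), the main one, had 220.2, 218 and 229 FPKM in the overexpression libraries, against 153, 152 and 162 FPKM in the knockdown libraries, a log2 fold change of 0.60 ± 0.07, while CALR fell by 0.71 and PDIA4 by 0.60. Without overexpression 1 and 3, 1 of these was called higher and 2 lower, and without both libraries numbered 3, 3 were higher. Cytosolic heat shock genes were higher for 3 and lower for 5 of 13, with 3 lower without overexpression 3 or with limma on TPM, 3 lower without overexpression 1 and 3 together, and 1 lower without both libraries numbered 3. The inducible HSPA1A had 58.6, 52 and 57.1 FPKM in the overexpression libraries, against 78.7, 78.9 and 84.8 FPKM in the knockdown libraries, and fell by 0.45, and the co-chaperone BAG3 rose by 0.91. HSPA1A and HSPA1B are near-identical copies, and both calls were lost without both libraries numbered 3 (adjusted p 0.0578 and 0.0516). Of 13 NRF2 genes 3 were higher and 4 lower. HMOX1, the haem-degrading enzyme, had 75.4, 65.4 and 73.4 FPKM in the overexpression libraries, against 7.7, 7.67 and 8.35 FPKM in the knockdown libraries, and rose by 3.26 ± 0.10 on the log2 scale (edgeR adjusted p 1.30e-05). Lower members included enzymes of the pentose phosphate pathway. TKT (transketolase) had 19.6, 15.9 and 18.2 FPKM in the overexpression libraries, against 41.8, 40.2 and 41 FPKM in the knockdown libraries, and fell by 1.11, and PGD fell by 0.91.

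GADD45A, a growth arrest and stress protein, had 198, 173 and 169.9 FPKM in the overexpression libraries, against 12.6, 10.7 and 14.2 FPKM in the knockdown libraries, a log2 fold change of 3.93 ± 0.15 (edgeR adjusted p 2.47e-05). The exonuclease gene AEN rose by 2.13 and the cell cycle inhibitor CDKN1A (p21) by 1.03. MDM2, a ubiquitin ligase, did not pass, with 2.95, 4.03 and 4.03 FPKM in overexpression and 4.98, 6.55 and 3.42 FPKM in knockdown libraries, but did with a GC correction (-0.58, adjusted p 0.0356). The ferredoxin reductase gene FDXR fell by 0.97.

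Glycolysis genes were mostly lower in the overexpression libraries, in contrast to LDHA. Of 25 genes of glycolysis and lactate, 5 were higher and 14 lower, against 24.6% and 23.7% among all tested genes, with a median log2 fold change of -0.35. In lower glycolysis, from aldolase to pyruvate kinase, 7 of 9 were lower and none higher, with a median of -0.67. GAPDH had 1096, 909 and 1015 FPKM in the overexpression libraries, against 1945, 1763 and 2047 FPKM in the knockdown libraries, with no overlap, and fell by 0.85 on the log2 scale (edgeR adjusted p 0.00127). PGAM1 had 169, 142 and 181 FPKM in the overexpression libraries, against 324, 282 and 318 FPKM in the knockdown libraries, and fell by 0.82. Phosphoglycerate kinase PGK1 fell by 0.79, TPI1 by 0.67, ALDOA by 0.60 and pyruvate kinase PKM by 0.64. The call of PKM was lost without overexpression 1 (adjusted p 0.0727), overexpression 2 (0.0834) or both overexpression 1 and 3 (0.0986), and that of ALDOA without overexpression 1 and 3 (0.0744). ALDOC, an aldolase of brain, fell furthest, by 2.14, with 1.12, 1.16 and 0.997 FPKM in the overexpression libraries, against 4.9, 5.07 and 5.48 FPKM in the knockdown libraries. The enolase genes ENO1 and ENO2 did not pass, with an adjusted p of 0.0535 for ENO1. ENO1 was called lower with DESeq2 (-0.30, adjusted p 0.0333), library totals (-0.37, 0.019), limma on FPKM or TPM, a minimum of 5 FPKM and a GC correction (-0.33, 0.0184), and without overexpression 1 or knockdown 2.

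The 5 glycolysis and lactate genes that rose were HK2, PFKFB3, LDHA, LDHB and PDK1. HK2, the hexokinase that many tumours use, had 5.44, 6.01 and 4.59 FPKM in the overexpression libraries, against 2.33, 2.49 and 2.36 FPKM in the knockdown libraries, a log2 fold change of 1.24 ± 0.12 (edgeR adjusted p 0.000502). LDHB, the subunit that favours the turn of lactate to pyruvate, had 142, 137 and 187 FPKM in the overexpression libraries, against 94.2, 97.6 and 104 FPKM in the knockdown libraries, and rose by 0.74 ± 0.13, more than LDHA's 0.37 ± 0.10, a difference between the genes that was not tested. PDK1, which shuts the pyruvate dehydrogenase complex, rose by 0.84, and its relative PDK3 fell by 1.10, and these 2 passed the filter through overexpression alone and knockdown alone, so they had to differ. PFKFB3, which makes the activator of phosphofructokinase, had 7.16, 6.64 and 16 FPKM in overexpression 1, 2 and 3, against 4.23, 2.21 and 2.2 FPKM in knockdown 1, 2 and 3. It rose by 1.87, with overexpression 3 above the others, a call lost without both libraries numbered 3 (adjusted p 0.057), without overexpression 1 and 3 (0.0946) or with no filter (0.065), while PFKFB4 fell by 1.58. The glucose transporter SLC2A1 did not pass except without knockdown 2 (0.50, adjusted p 0.0471). The lactate exporter SLC16A3 fell by 0.56, a call lost without both libraries numbered 3 (0.0861). Without overexpression 1 and 3, the median log2 fold change of the list was -0.58. With no filter 3 members were called higher, and with a minimum of 5 FPKM 3 of the 20 then tested were. Several of these genes, GAPDH and LDHA among them, have many processed pseudogenes that may take reads.

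Hypoxia factors, oxygen sensors and targets outside glycolysis were higher for 8 of 17 tested and lower for 2, against 24.6% and 23.7% among all tested genes. Of the 10 targets among them, 5 were higher and 2 lower. The filter had been passed through overexpression alone by 1 of the 17. ANGPTL4, a secreted inhibitor of lipoprotein lipase, had 41, 35.3 and 35.3 FPKM in the overexpression libraries, against 11, 10.5 and 13.6 FPKM in the knockdown libraries, a log2 fold change of 1.75 ± 0.14 (edgeR adjusted p 0.00024). KDM3A, a histone demethylase, rose by 0.80 and the stress gene NDRG1 by 0.79. The mitophagy receptors BNIP3L and BNIP3 fell by 0.65 and 0.43, the call of BNIP3 being lost without both libraries numbered 3 (adjusted p 0.0583). Without overexpression 1 and 3, 4 were called higher, and without both libraries numbered 3, 5 higher and 1 lower. With a minimum of 5 FPKM only 11 of the 17 were tested, and 4 were higher and 4 lower. The lower members numbered 4 with library totals or DESeq2, 4 or 5 with limma on FPKM, and 5 with a GC correction.

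Mitochondrial energy genes leaned lower by small amounts. Of 15 tricarboxylic acid cycle genes 7 were lower and 2 higher, and of 28 nuclear genes of the respiratory chain 13 were lower and none higher. The shares among all tested genes were 23.7% lower and 24.6% higher. NDUFV1 of complex I had 9.34, 9.08 and 9.36 FPKM in the overexpression libraries, against 18, 15.7 and 16.6 FPKM in the knockdown libraries, and fell by 0.77 on the log2 scale (edgeR adjusted p 0.000611). Citrate synthase CS fell by 0.40, a call lost without overexpression 1 and 3 (adjusted p 0.0646), and DLST, of the oxoglutarate dehydrogenase complex, rose by 0.74. Of the 13 protein genes of the mitochondrial genome only MT-ND3 passed, falling by 0.62, and the median was -0.22. After quantile normalization MT-ND3 was at -0.14 and did not pass (limma adjusted p 0.297). Lower cycle genes numbered 4 without overexpression 2, 3 without knockdown 1 and 3 without overexpression 1 and 3 together, and only DLST was higher without any 1 library other than knockdown 2. No more than 1 cycle gene was called higher with library totals, limma, no filter or a GC correction. That also held without both libraries numbered 3, where 2 were lower, and at a minimum of 5 FPKM, where 14 were tested. The median log2 fold change of the cycle genes without overexpression 1 and 3 was -0.37. Genes of the mitochondrial genome called lower numbered 3 without overexpression 1, 4 with library totals, 3 or 4 with limma and 5 with a GC correction. The count of lower respiratory chain genes was 7 without both libraries numbered 3 and 20 with a GC correction.

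Lipid synthesis genes were mostly lower in the overexpression libraries, beside 23.7% lower and 24.6% higher among all tested genes. Of 24 cholesterol genes tested 16 were lower and 1 higher, with a median log2 fold change of -0.65. Of 12 fatty acid genes 9 were lower and none higher, with a median of -0.73. SCD, the desaturase that makes oleate, had 76.4, 78.5 and 82.3 FPKM in the overexpression libraries, against 267, 263 and 278 FPKM in the knockdown libraries. It fell by 1.68 on the log2 scale (edgeR adjusted p 2.96e-05), with tight libraries in both groups. SREBF1, the transcription factor that drives fatty acid genes, had 4.79, 4.38 and 5.08 FPKM in the overexpression libraries, against 16.9, 18.5 and 16.2 FPKM in the knockdown libraries, and fell by 1.77, and its locus overlaps RAI1. FASN, fatty acid synthase, fell by 0.93, FADS2 by 1.34 and ACACA by 0.84.

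Among cholesterol genes, lanosterol synthase LSS had 5.94, 5.73 and 6.43 FPKM in the overexpression libraries, against 16.8, 17.5 and 15.8 FPKM in the knockdown libraries, and fell by 1.38 on the log2 scale (edgeR adjusted p 7.59e-05). ACAT2 fell by 1.25, and the enzymes FDPS and FDFT1, which make and use farnesyl diphosphate, by 0.92 and 0.96. The call of FDFT1 was lost without overexpression 1 and 3 (adjusted p 0.0538). SREBF2, the factor that drives these genes, fell by 0.91. HMGCS1, an early enzyme of the pathway, was the 1 gene called higher, at 0.28 ± 0.09 (adjusted p 0.0371), with groups that overlap in FPKM, at 17.6, 19.5 and 17 FPKM in overexpression and 15.6, 17.3 and 14.6 FPKM in knockdown libraries. Its call was lost without any 1 of the libraries except knockdown 2, without overexpression 1 and 3 together (adjusted p 0.083), with library totals (0.105), with limma and with no filter, and a GC correction turned it to -0.02. Genes of mTOR control, a pathway upstream of SREBF1, were higher for 2 and lower for 6 of 11, against 24.6% and 23.7% among all tested genes. The lower count was 3 without both libraries numbered 3. The higher count was 1 without overexpression 1, overexpression 3, knockdown 1 or knockdown 2. DEPTOR, an inhibitor bound to both mTOR complexes, had 1.53, 1.47 and 1.66 FPKM in the overexpression libraries, against 9.75, 9.6 and 9.31 FPKM in the knockdown libraries, and fell by 2.53 (edgeR adjusted p 2.96e-05).

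Genes of the mitotic spindle and division, the process NUSAP1 acts in, were lower for 12 of 39 and higher for none. Among all tested genes, 23.7% were lower and 24.6% higher. The median log2 fold change of the 39 was -0.27. KIF20A, a kinesin of cytokinesis, had 14.7, 14.7 and 16.7 FPKM in the overexpression libraries, against 28.2, 27.6 and 30.4 FPKM in the knockdown libraries, and fell by 0.82 on the log2 scale (edgeR adjusted p 0.000633). Cyclins CCNB2 and CCNA2 fell by 0.76 and 0.55. TPX2, which like NUSAP1 is released by importins to build spindles, had 191, 198 and 207 FPKM in overexpression and 203, 202 and 211 FPKM in knockdown libraries, and did not pass. The count of lower members was 5 without overexpression 1 and 3, 7 without both libraries numbered 3 and 23 with a GC correction.

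DNA replication genes were lower for 15 of 39 and higher for 3, against 23.7% lower and 24.6% higher among all tested genes. The helicase subunit MCM6 had 15.7, 17 and 16 FPKM in the overexpression libraries, against 26.2, 27.6 and 25.8 FPKM in the knockdown libraries, and fell by 0.62 (edgeR adjusted p 0.000597). PCNA, the sliding clamp, fell by 0.56, and E2F1, which drives S phase genes, by 0.76. The 3 that rose were GINS1 (0.97), CCNE2 (1.20) and CCND1 (0.41), and the call of CCNE2 was lost without overexpression 2 (adjusted p 0.0638), overexpression 3 (0.0595), both overexpression 1 and 3 (0.0867) or both libraries numbered 3 (0.0509). Cytosolic ribosomal protein genes were lower for 30 of 73 and higher for none, against the same shares among all tested genes, with a median of -0.28. RPL15 had 48.7, 48.6 and 53.9 FPKM in the overexpression libraries, against 87.9, 96 and 89.4 FPKM in the knockdown libraries, and fell by 0.77. The count of lower ribosomal protein genes was 15 without overexpression 2, 18 without overexpression 3, 12 without knockdown 1, 15 without knockdown 3, 17 without overexpression 1 and 3 and 5 without both libraries numbered 3. Lower replication genes numbered 9 without both libraries numbered 3, and higher ones 5 in the fit on all 9 libraries.

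Among 11 tubulins, the subunits of the microtubules NUSAP1 binds, 3 were lower and 1 higher. That is close to the 23.7% lower among all tested genes, of which 24.6% were higher. TUBB had 553, 477 and 526 FPKM in the overexpression libraries, against 849.6, 771 and 865 FPKM in the knockdown libraries, and fell by 0.59 (edgeR adjusted p 0.00301), and TUBA1B and TUBB4B fell by 0.58 and 0.50, the call of TUBB4B being lost without both libraries numbered 3 (adjusted p 0.0655). TUBB6 had 40.0, 36.9 and 19.5 FPKM in the overexpression libraries, against 7.03, 8.11 and 6.95 FPKM in the knockdown libraries, with no overlap although overexpression 3 was lower than its group, and rose by 2.21.

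Epithelial and mesenchymal genes did not move as blocks, beside 24.6% higher and 23.7% lower among all tested genes. Of 10 epithelial genes tested 4 were higher and 4 lower, with 2 higher without knockdown 1 and 2 lower without both libraries numbered 3. With a minimum of 5 FPKM only 6 were tested, and 3 were higher and 2 lower. Of 16 mesenchymal and invasion genes 7 were higher and 2 lower, with 1 lower without overexpression 2, overexpression 3, knockdown 1, both overexpression 1 and 3 or both libraries numbered 3, and 1 with no filter. The lower count was 4 without knockdown 2 and with library totals, DESeq2, limma and the fit on all 9 libraries. With a minimum of 5 FPKM only 11 of the 16 were tested, and 4 were higher and 3 lower. CDH1 (E-cadherin), the adhesion protein of epithelia, was low in both groups, at 0.308, 0.314 and 0.266 FPKM in the overexpression libraries, against 2.18, 1.86 and 1.37 FPKM in the knockdown libraries, and fell by 2.50 on the log2 scale (edgeR adjusted p 0.000239). It passed the filter through knockdown alone, so it had to differ. CLDN1, a tight junction protein, rose by 2.07, and CLDN7 fell by 0.89. Vimentin did not pass, and CDH2 (N-cadherin) fell by 0.48, a call lost without overexpression 1 and 3 (adjusted p 0.0546). The urokinase gene PLAU had 158, 144 and 153 FPKM in the overexpression libraries, against 34.9, 34.6 and 38.5 FPKM in the knockdown libraries, and rose by 2.16 ± 0.09. The collagenase MMP1, which passed the filter through overexpression alone, rose by 5.09 and the urokinase receptor PLAUR by 1.75. The membrane protease MMP14 had 5.51, 5.59 and 5.07 FPKM in overexpression and 8.38, 6.28 and 8.48 FPKM in knockdown libraries, and its log2 fold change of -0.43 did not pass (edgeR adjusted p 0.0509). It passed without knockdown 2 (0.00818), with DESeq2 (0.0278), library totals (0.0253), a minimum of 5 FPKM (0.0345) and the fit on all 9 libraries (0.0244), and in the 4 limma settings (0.0239 to 0.0456).

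Of the 12 genes with the largest decreases by the rule for named genes, DEPTOR and ALDOC have been described. THRA, the thyroid hormone receptor alpha, had 0.846, 0.418 and 1.21 FPKM in the overexpression libraries, against 5.54, 4.84 and 4.66 FPKM in the knockdown libraries, a log2 fold change of -2.52 ± 0.37 (edgeR adjusted p 0.00221). Its locus overlaps that of NR1D1, a clock repressor on the opposite strand, which had 58.7, 51.4 and 52.7 FPKM in the overexpression libraries, against 6.28, 5.8 and 5.25 FPKM in the knockdown libraries, and rose by 3.32 ± 0.10. PBXIP1, a partner of PBX homeodomain proteins, had 2.6, 2.61 and 2.94 FPKM in the overexpression libraries, against 14.4, 14.5 and 15.1 FPKM in the knockdown libraries, and fell by 2.35. BMF, a BCL2-family death gene, fell by 2.32, and MKNK2, a kinase of the cap-binding factor eIF4E, by 2.09. ADNP fell by 2.05, a call lost without overexpression 1 and 3 (adjusted p 0.107). PLCXD1, GCHFR, ADAMTS15, ENHO and EFNA3 fell by 1.91 to 2.44. THRA and NR1D1 may share reads.

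Among the 12 largest increases, IFNL1, IFNL2, IFNL3, IFIT2, OASL, CCL5, EGR1, IFIT3 and MMP1 have been described. RSC1A1, a regulator of sugar transport whose locus lies within that of DDI2, had 13.8, 15.7 and 15.2 FPKM in the overexpression libraries, against 0.137, 0.138 and 0.107 FPKM in the knockdown libraries, a log2 fold change of 6.91 ± 0.15 (edgeR adjusted p 6.35e-06). MAFF, a small basic leucine zipper factor, had 18.3, 18.4 and 18.2 FPKM in the overexpression libraries, against 0.915, 0.904 and 0.924 FPKM in the knockdown libraries, and rose by 4.40 ± 0.08. KRTAP2-3, a keratin-associated protein of hair, rose by 5.55. All of these 12 but EGR1 passed the filter through overexpression alone, so they had to differ. SAT1, the polyamine acetylase and a very abundant gene with small relative error, rose by 1.73. Chosen after their values were seen, the clock genes PER1 and NOCT rose by 3.06 and 3.92, and the death gene PMAIP1 (NOXA) by 2.86. HOTAIR, a long noncoding RNA, fell by 2.01, and had 3.98, 3.32 and 1.33 FPKM in the overexpression libraries, against 11.9, 13.1 and 12.1 FPKM in the knockdown libraries.

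The genes called in the 2 directions differed in base composition. Protein-coding genes were sorted into 5 equal bins by the GC content of the longest GENCODE 29 transcript. Of the bin with least GC (30.2% to 40.9%), 31.9% were called higher and 9.22% lower. Of the bin with most GC (58.5% to 75.8%), 15.5% were called higher and 42.5% lower. The median log2 fold change was 0.26 in the lowest bin and -0.32 in the highest. Libraries also differed in this within a group. Across 10525 genes, which are not independent, each library's deviation from its group mean correlated with GC at 0.33, -0.32 and -0.01 in overexpression 1, 2 and 3, and at 0.00, -0.31 and 0.31 in knockdown 1, 2 and 3. The part of GC in the calls between groups was not tested beyond the correction given in the closing section.

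**Figure D4:**
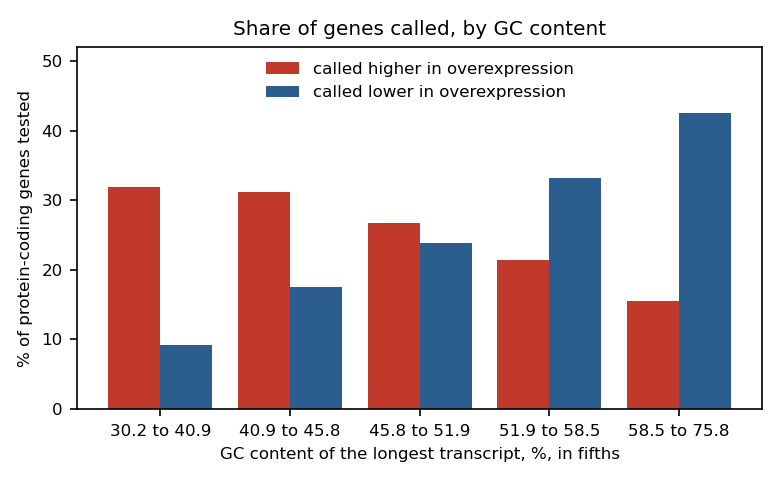
Share of protein-coding genes tested that were called higher (red) or lower (blue) in overexpression, in 5 equal bins of the GC content of the longest transcript. The share called lower is 9.22% in the bin with least GC and 42.5% in the bin with most, and the share called higher is 31.9% and 15.5%.

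The 193 protein-coding genes called at least 4-fold higher were shorter and had fewer exons than the 10525 protein-coding genes tested. Their median span was 14.8 kb, against 30.4 kb for all, and their median exon number was 6, against 10. At most 2 exons were found in 19.7% of them, against 4.86% of all. A short span and few exons were not particular to the higher side. The 43 protein-coding genes called at least 4-fold lower had a median span of 20.99 kb and a median exon number of 6. At most 2 exons were found in 6.98% of those 43. In the promoter windows, TATAAA lay in 21.2% of the 156 genes called at least 4-fold higher with a RefSeq entry, against 4.95% of all. The AP-1 letters TGANTCA lay in 12.2%, against 3.88%, and the cyclic AMP response element TGACGTCA in 8.33%, against 3.53%, on either strand. These shares are descriptions of genes chosen by their fold change and carry no test.

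A small set of genes differed several-fold between libraries of the same group. More than a 4-fold gap between libraries was seen in the overexpression group for 162 of the tested genes (1.34%) and in the knockdown group for 202 (1.67%), of which 6 and 16 were called. IER2, an immediate early gene, had 3.26, 88.4 and 94.4 FPKM in overexpression 1, 2 and 3, against 3.0, 17.3 and 17.4 FPKM in knockdown 1, 2 and 3. The library numbered 1 was the low one in each group, and the log2 fold change of 2.38 did not pass (edgeR adjusted p 0.148). JUND had 19.4, 14.9 and 3.27 FPKM in overexpression and 21.7, 22.6 and 21.3 FPKM in knockdown libraries, with overexpression 3 apart from the other 5. The neuronal tubulin TUBB3 had 26.2, 8.83 and 11.4 FPKM in overexpression and 60.5, 9.98 and 60.6 FPKM in knockdown libraries, and knockdown 2 was the low one of its group, without which TUBB3 was called lower (-1.89, adjusted p 0.0257). PVT1, the noncoding neighbour of MYC on chromosome 8, was even within groups, with 1.99, 2.08 and 2.1 FPKM in the overexpression libraries, against 0.922, 0.83 and 0.832 FPKM in the knockdown libraries, and had passed the filter through overexpression alone.

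**Figure D5:**
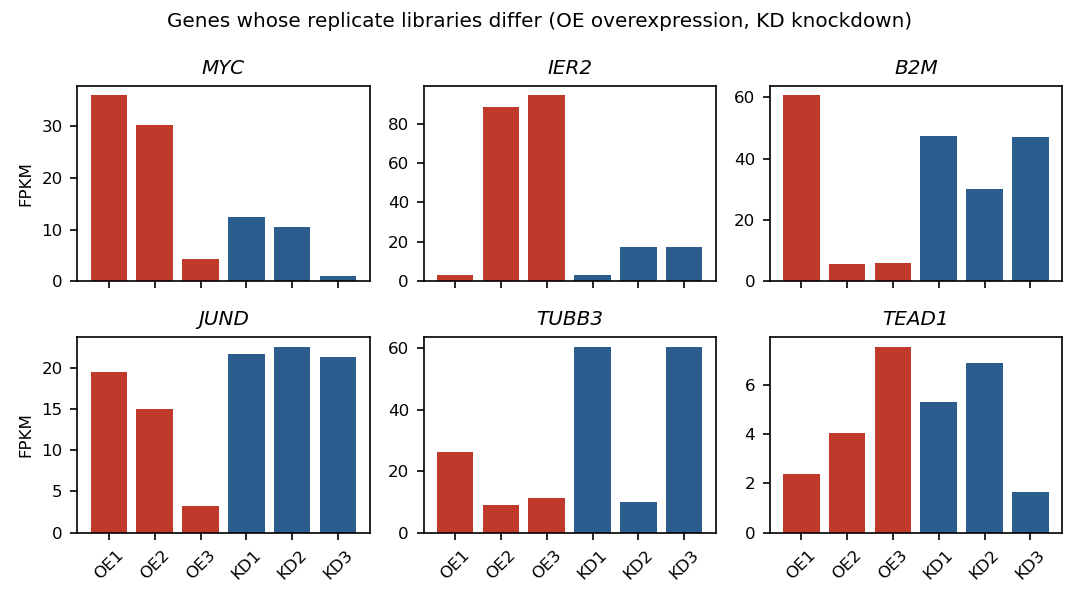
FPKM of 6 genes in overexpression 1 to 3 (OE, red) and knockdown 1 to 3 (KD, blue), each with its own linear axis from 0. MYC is low in both libraries numbered 3, IER2 in both numbered 1, B2M in overexpression 2 and 3, JUND in overexpression 3 and TUBB3 in overexpression 2 and 3 and knockdown 2.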

How the data were processed

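RNA of 3 overexpression and 3 knockdown libraries was poly(A) selected and sequenced with a dUTP protocol, per the labels. The authors deposited raw counts and FPKM per gene in the same table, in which an FPKM of 0 is written as a small placeholder and was read as 0. Per the submitters' processing notes, cutadapt 1.9, HISAT2 2.0.4 and StringTie 1.3.4d were used. The genome build and the use of strand in counting were not given in the sources used here. Of the 60612 gene IDs, 58394 matched GENCODE 29 (GRCh38), and 99.98% of those overlapped the deposited position, so GRCh38 coordinates are printed. Genes whose loci overlap may share reads, and antisense genes cannot be told apart from their partners.

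Deposited counts of genes with at least 1 FPKM in at least 3 of the 6 libraries were tested with edgeR 4.0.16 (TMM scaling, robust quasi-likelihood) in R 4.3.3, with Benjamini-Hochberg adjustment over all 12089 genes and a threshold of 0.05. Standard errors were taken from the fold change and the F statistic and are approximate. NUSAP1 and LDHA were also compared on log2(FPKM + 1) by exact two-sided permutation with SciPy 1.17.1. Simulated counts for the 12089 genes gave 10.4%, 59.7% and 95.5% of 67, 67 and 66 genes changed by 1.5, 2 and 4 times, with 11 false calls among 11889 unchanged genes. Far fewer genes changed there than the 48.3% called in the data. The adjusted threshold was therefore stricter in the simulation, and its shares do not carry over to the data. Total counts were 57518565 to 69764307 per library, and bounds from the floor of 3 counts cover counting error only.

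Members and gene lists were chosen with earlier results of these data known. Named genes were NUSAP1, LDHA, HIF1A and MYC, the 12 largest increases and decreases among called genes with groups that do not overlap and at least 5 FPKM in the higher group, the 6 most precise changes among genes of at least 100 FPKM, up to 3 members of each list and direction with the smallest adjusted p, and members with libraries more than 4-fold apart. Other list members, OIP5, PVT1, NR1D1, PER1, NOCT, PMAIP1 and HOTAIR were added after their values were seen. A few genes chosen in this way are not reported here. Alternatives were other scalings, DESeq2 1.42.0, limma 3.58.1 on log2 FPKM or TPM, other filters, a fit on all 9 libraries, the replicate number as a block and each library left out.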

Additional observations from a re-analysis of the deposited data

How the results depend on the processing

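Beside 5843 called genes (2975 higher, 2868 lower, 1815 at least 2-fold), the other scalings, DESeq2, limma and the fit on all 9 libraries called 5663 to 6423. Lower calls outnumbered higher ones with library totals (2660 higher, 3364 lower), limma on log2(FPKM + 1) (2623 and 3536), limma on log2(FPKM + 0.1) (2601 and 3515) and quantile normalization (2787 and 3393). The count at least 2-fold was 977 with limma on log2(FPKM + 1) and 987 after quantile normalization. With no filter on low values it was 2750 of 31676 genes tested. With a minimum of 5 FPKM, only 6783 genes were tested, and 3809 of them were called (1968 higher, 1841 lower, 910 at least 2-fold). Without 1 library, 4558 (without knockdown 1) to 5527 (without knockdown 2) were called, 2376 to 2895 higher, 2182 to 2661 lower and 1703 to 1915 at least 2-fold. The difference in log2(FPKM + 1) was 9.91 to 10.03 for NUSAP1 and 0.24 to 0.37 for LDHA without 1 library, beside 9.96 and 0.29 with all.

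Chosen after seeing the data, 3 further alternatives were run. Without overexpression 1 and 3, the libraries with hepatocyte transcripts, 3546 genes were called (1770 higher, 1776 lower), with a lone overexpression library assumed to vary like the knockdown group. Without both libraries numbered 3, 3666 were called (2030 higher, 1636 lower). Fewer samples enter both fits. With a GC correction 6164 were called (2750 higher, 3414 lower).

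The main fit used no pairing. Deviations of same-numbered libraries correlated at -0.05, 0.29 and 0.04, against -0.31 to 0.27 for libraries of different numbers. Deviations also followed GC content within groups, so these values cannot decide whether the numbers pair the libraries. MYC was low in both libraries numbered 3, and IER2 in both numbered 1. With the replicate block 6021 genes were called (3052 higher, 2969 lower), 47 ribosomal protein genes were lower, against 30 without it, and MYC passed at 1.78 (adjusted p 0.00195).

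The 219 genes chosen for description gave 4559 comparisons with alternatives, of which 4389 kept direction and call, 121 lost the call, 31 gained it and 18 changed sign. HMGCS1 (0.28) was -0.020 with a GC correction. TEAD1 (0.11) was -0.42 without overexpression 3, -0.28 without knockdown 3, -0.10 without overexpression 1 and 3, -0.82 without both libraries numbered 3 and -0.11 with a GC correction, and reached 0.50 without knockdown 2. KLF6 (0.41) was -0.12 without overexpression 1 and -0.18 without overexpression 1 and 3, and reached 0.64 without overexpression 2. TNIP1 (0.06) was -0.0079 with library totals, -0.025 after quantile normalization, -0.028 and -0.030 with limma at pseudocounts of 1 and 0.1, -0.020 without both libraries numbered 3 and -0.13 without overexpression 1 and 3. TPX2 (0.04) was -0.059 with a GC correction, -0.029 with library totals and -0.048 and -0.049 with limma at pseudocounts of 1 and 0.1. The causes were not tested. Depth limits what can be said of genes near the floor. Few simulated 1.5-fold changes were found, in a simulation with far fewer changed genes than were called in the data.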
